A study of Mus musculus with 20 samples.

Results

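The transcripts of 55 genes that copy DNA or repair it by homologous recombination were followed in mouse knee joints after destabilization of the medial meniscus (DMM), a surgical model of osteoarthritis. The genes were chosen by name, with earlier results of these data known, and all 55 were found among the 14793 genes of the deposited table. Every mouse was a male C57BL/6Nci animal of 12 weeks at entry and had DMM of the right knee. The 4 groups then received, in weeks 3 and 5 after surgery, needle insertion alone (control), adipose-derived mesenchymal stromal cells without activation (MSC), the same cells exposed for 2 h to 10 µg/mL of the TLR3 agonist pIC (TLR3-MSC), or cells exposed in the same way to the STING agonist 2′3′-cGAMP (STING-MSC). All cells came from 1 pool of donor mice, so the comparisons cover that cell preparation. Each group had 10 mice, of which 5 gave a joint for polyA RNA sequencing, and the tissue was taken whole, with cartilage, synovium, capsule and the adjoining subchondral bone. The methods of the study place collection 8 weeks after surgery, but elsewhere the day after an injection is named, and this was not resolved here.

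Chromosomal replication begins when the origin recognition complex (Orc1 to Orc6) with Cdc6 and Cdt1 loads the Mcm2 to Mcm7 ring onto DNA, a step that Gmnn, the gene of geminin, restrains once it has happened. The kinase pair Cdc7 and Dbf4 then helps to turn the loaded ring into a working helicase together with Cdc45, the GINS proteins and Mcm10, after which primase and the polymerases copy the strands along the sliding clamp Pcna, which the Rfc complex loads. Broken or stalled forks are cut back by the Mre11a, Rad50 and Nbn complex with Rbbp8 and Exo1, coated by the Rpa proteins, and repaired on a sister copy with Brca1, Bard1, Palb2 and Brca2, while Atr, Atrip and Chek1 hold the cell cycle. In an adult joint most cartilage and muscle cells do not divide, whereas the marrow of the subchondral bone holds blood precursors that do.

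Sequencing depth ranged from 27955496 to 52529973 recovered reads per joint. Defining transcripts of cartilage, synovial lining, bone, muscle, erythroid precursors and neutrophil precursors were detected in every joint, and none of the markers tested was at 0 in any of them. The summed level of 8 skeletal muscle markers ranged from 845979 to 3497750 normalized counts per joint, and that of 12 erythroid precursor markers from 101646 to 295408. MSC joint 5, with 296 genes at 0, and STING-MSC joint 5, with 97, lacked more genes than the other joints, which had 0 to 42. These are bulk samples, in which fewer cells of a type and less RNA per cell cannot be told apart.

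The 55 genes were present at very different levels. Measured per kilobase of the canonical transcript, so that genes can be compared, mean levels over the 20 joints ran from 2813 normalized counts for Pcna down to 51.9 for Rad51c among the genes that were clearly detected. The helicase ring stood high, with 2329 for Mcm6, 2191 for Mcm7, 1872 for Mcm2 and 1410 for Mcm5, and the ligase that seals Okazaki fragments, Lig1, reached 1413. By role, the 12 helicase genes had a median of 830.1 per kilobase, the 9 licensing genes 539.0, the 6 polymerase and primase genes 612.2 and the 6 clamp and clamp loader genes 537.5. The 12 recombination genes had a median of 155.4, within a range from 51.9 for Rad51c to 356.9 for Nbn, and the checkpoint genes Atr and Chek1 had 58.4 and 61.4. By median the 5 single-strand binding and flap ligation genes, Fen1 included, stood highest at 1031, and the recombination and checkpoint genes lowest. The roles overlapped, as Nbn and the checkpoint gene Atrip (196.5) exceeded the licensing gene Orc1 (170.4) and the helicase gene Gins2 (114.3).

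Fen1, the flap endonuclease that trims Okazaki fragments, was an exception that concerns the counting. Its normalized counts were 14.8, 16.9, 16.3, 10.0 and 10.9 in control joints 1 to 5, 10.1, 15.2, 9.9, 23.9 and 0 in MSC joints, 31.2, 10.5, 6.7, 23.8 and 12.4 in TLR3-MSC joints, and 24.9, 8.6, 10.4, 15.0 and 5.8 in STING-MSC joints. Of the bases in its canonical exons, 79.4% are shared with Gm10143 and Tmem258 on the opposite strand, and no source used here states whether strand was used in counting. Its values are therefore uncertain, and its fold changes are not read. Another 29 genes share some exon bases with a neighbour, and 10 of the 55 share at least 25%, among them Gins2 (70.7%), Rfc5 (60.5%), Orc4 (46.0%, with Acvr2a) and Orc3 (28.0%).

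The first pattern in the data was between joints and not between groups. The mean of log2(normalized count + 1) over the 55 genes was 10.35, 10.24, 10.08, 9.90 and 10.58 in control joints 1 to 5 and 10.44, 9.84, 10.56, 10.50 and 9.74 in MSC joints. In TLR3-MSC joints it was 10.75, 10.04, 9.80, 10.36 and 10.00, and in STING-MSC joints 10.36, 10.18, 10.38, 10.42 and 10.61. The 4 groups overlapped widely, and the highest and lowest joints of all, TLR3-MSC joint 1 and MSC joint 5, lay in different treated groups. Within a group the range corresponded to a 1.61-fold difference among control joints, 1.76-fold in MSC, 1.93-fold in TLR3-MSC and 1.35-fold in STING-MSC. The STING-MSC joints lay closest together, with an SD of 0.15 against 0.26 in control, 0.39 in MSC and 0.37 in TLR3-MSC, and this difference in spread was not tested.

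**Figure D1:**
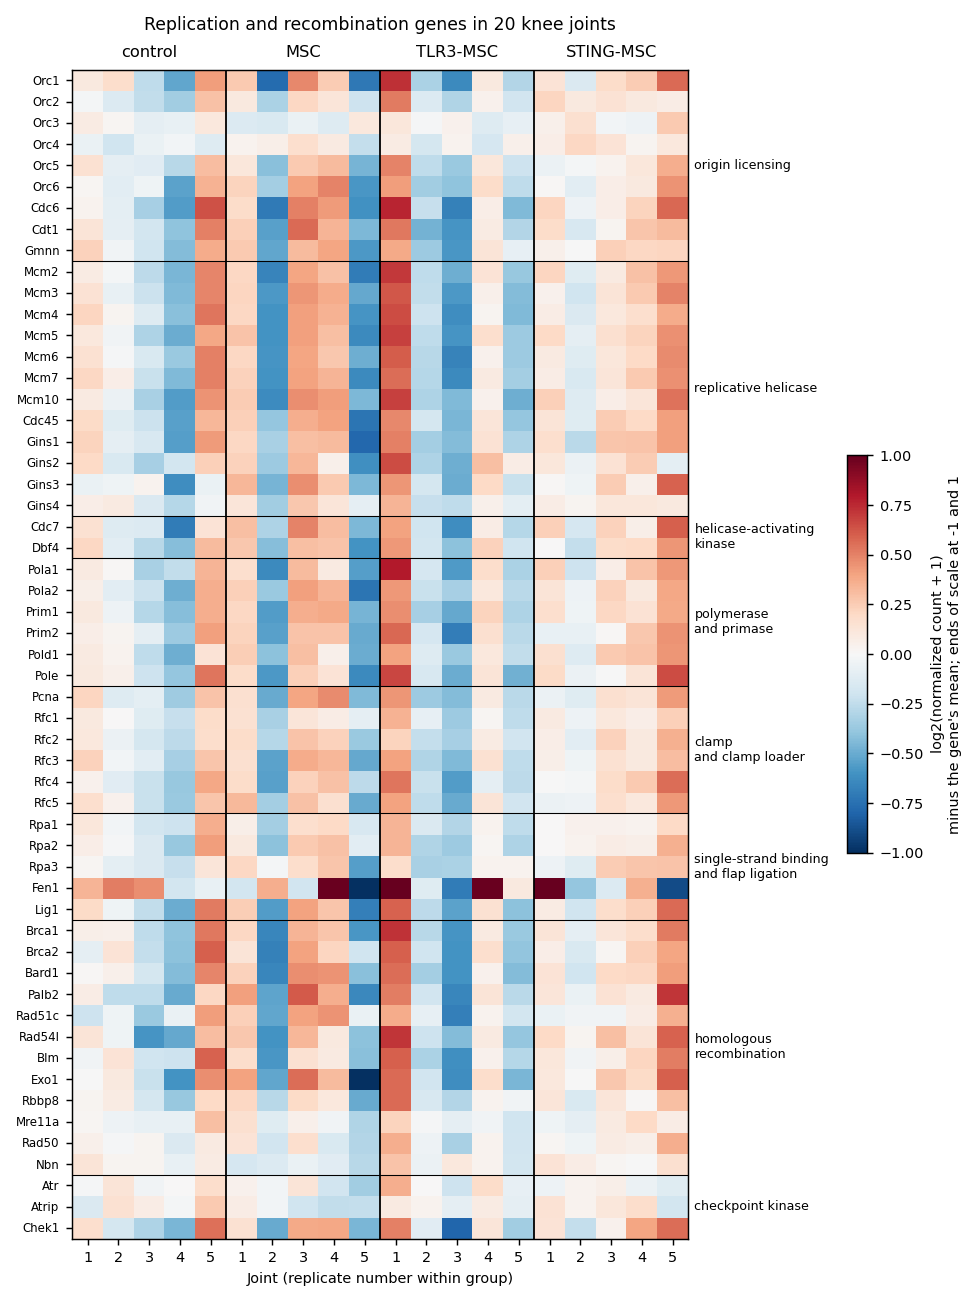
Rows are the 55 genes, grouped by role, and columns the 20 joints, 5 per group. Colour gives log2(normalized count + 1) in a joint minus that gene's mean over all joints, with the scale ending at -1 and 1. Most rows share the same pattern of red and blue columns, such as the dark red TLR3-MSC joint 1 and the blue MSC joints 2 and 5, while Orc3, Orc4, Nbn and Atrip stay pale and Fen1 follows a course of its own.

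Nearly all genes of the set took part in this common rise and fall. TLR3-MSC joint 1 held the highest value for 32 of the 55 genes and STING-MSC joint 5 for 13, whereas MSC joint 5 held the lowest for 22, MSC joint 2 for 15 and TLR3-MSC joint 3 for 14. Mcm2, a subunit of the helicase ring, spanned a 2.65-fold range over the 20 joints, from 3752 to 9924 normalized counts. Exo1, a 5′ to 3′ exonuclease of recombination, spanned 3.33-fold, the widest range apart from Fen1. At the other end Orc3 spanned 1.33-fold, Orc4 1.36-fold, Atrip 1.42-fold and Nbn 1.48-fold. Of the sum of squares of a gene on the log2 scale, the 4 groups accounted for a median of 8.16% over the 55 genes, beside 15.0% over all genes, and Nbn had the highest share, 46.0%.

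Mki67, the gene of the proliferation antigen Ki-67 and not one of the 55, offered a yardstick for this variation. It ranged from 19578 normalized counts in MSC joint 2 to 53755 in TLR3-MSC joint 1. Each gene was regressed on Mki67 within groups, both on the log2 scale, so that a slope of 1 means that a gene doubles where Mki67 doubles and a slope of 0 that it does not follow it. The slope was positive at a limma adjusted p of at most 0.05 for 51 of the 55 genes, with a median slope of 0.77. Such a positive call was also made for 24.5% of all genes tested, whose median slope was -0.04. The 4 genes without a call were Orc3, Orc4, Atrip and Fen1. Leaving out any 1 joint gave 49 to 52 calls, and leaving out MSC joints 2 and 5, the 2 farthest from the median in Mki67, gave 50.

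The helicase genes had the highest median slope of the 8 roles, 0.92, within a range from 0.37 to 0.99. All 12 were called, and Mcm10 (0.99 ± 0.05 SE), Mcm2 (0.98 ± 0.05), Mcm5 (0.96 ± 0.06) and Mcm4 (0.95 ± 0.06) moved almost in proportion to it. Among the GINS subunits, which hold the active helicase together, Gins4 had a lower slope of 0.37 ± 0.07 than Gins1 at 0.86 ± 0.09. Both subunits of the helicase-activating kinase were called, Cdc7 with 0.78 ± 0.09 and Dbf4 with 0.77 ± 0.07.

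The licensing genes were split. Cdc6, the loader that brings in the helicase ring, had the steepest called slope of the whole set, 1.10 ± 0.06, and Orc1, the largest origin recognition subunit, had 1.04 ± 0.08. Orc2 had 0.51 ± 0.06, Orc5 0.65 ± 0.07 and Orc6 0.77 ± 0.08. Orc3 and Orc4, subunits of the same complex, had slopes of 0.06 ± 0.07 (adjusted p = 0.46) and 0.05 ± 0.07 (adjusted p = 0.59), with 95% intervals from -0.08 to 0.20 and from -0.10 to 0.19. The intervals of Orc1 and of Orc3 or Orc4 do not meet, so the values for 1 complex differed in how far they followed Mki67. Orc3 and Orc4 are, however, among the 10 genes that share at least 25% of their exon bases with a neighbour. Of these 10, 3 had no called slope (median 0.66), beside 1 of the other 45 (median 0.81), and the part of shared bases in the flat slopes was not tested.

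The polymerases and the clamp machinery lay between these. The 6 polymerase and primase genes had slopes from 0.66 for Pold1, the catalytic subunit of polymerase delta, to 0.92 for Pole, that of polymerase epsilon, and Pola1 had 0.89 ± 0.06. Pcna had 0.75 ± 0.08 and its loader subunits 0.43 (Rfc1) to 0.74 (Rfc4). The single-strand binding genes were shallower, with 0.48 ± 0.05 for Rpa1, 0.58 ± 0.06 for Rpa2 and 0.41 ± 0.10 for Rpa3, while Lig1 had 0.98 ± 0.06.

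Recombination genes had slopes from 0.17 to 1.06, and all 12 were called. Exo1 (1.06 ± 0.12), Brca1 (0.96 ± 0.05), its partner Bard1 (0.93 ± 0.06) and the bridge to Brca2, Palb2 (0.93 ± 0.10), had slopes close to 1. The 3 genes of the break-sensing complex stood at the bottom, with 0.17 ± 0.06 for Nbn, 0.30 ± 0.06 for Mre11a and 0.37 ± 0.07 for Rad50, although all 3 were called. In the same way Chek1, the effector kinase of the checkpoint, had 0.93 ± 0.09, whereas the sensor kinase Atr had 0.23 ± 0.08 and its partner Atrip 0.06 ± 0.09 (adjusted p = 0.55).

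**Figure D2:**
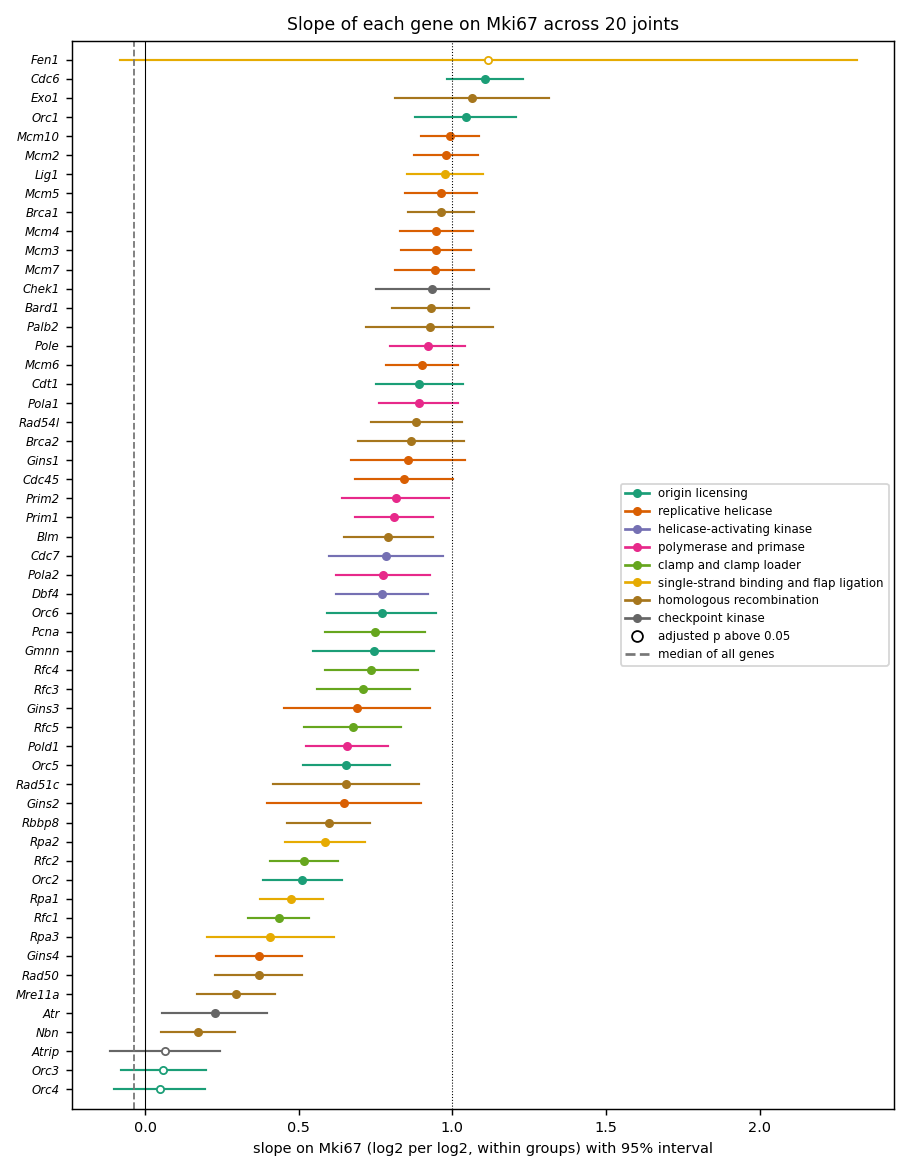
Slope of each of the 55 genes on Mki67 within groups over 20 joints, in log2 units per log2 unit, with 95% intervals and coloured by role. Open circles mark the 4 genes with an adjusted p above 0.05, the dashed line is the median of all genes, -0.04, and the dotted line marks a slope of 1. Mcm10, Mcm2, Mcm5 and Mcm4 lie just under 1 and Gins4, another helicase gene, at 0.37, and Orc4, Orc3, Atrip and Nbn lie at the bottom.

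The relation was seen in every group. Fitted in 1 group at a time, 53 of the 55 slopes were positive in control, 53 in MSC, 55 in TLR3-MSC and 50 in STING-MSC, with median slopes of 0.70, 0.88, 0.79 and 0.62. In the TLR3-MSC group all 55 genes had their highest value in joint 1, the joint with the most Mki67, and 49 had their lowest in joint 3, the joint with the least. In the MSC group 33 genes peaked in joint 3, which had the most Mki67, and 27 were lowest in joint 2, which had the least.

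Many replication genes are targets of the E2F factors, which bind GC-rich sites close to the transcription start. The letters TTTCGCGC or TTTGGCGC, sought on both strands in the 300 bases from 250 before to 50 after the start (RefSeq, GRCm38.p6), occurred in 10 of the 43 genes of the set that the promoter list holds, or 23.3%. They occurred in 0.813% of the 32851 promoters of that list. Counted per gene, with a match in any listed promoter, they occurred in 1.55% of the 11584 other genes of the table on that list. The letters CCAAT, the core of the NF-Y site, occurred in 26 of the 43 (60.5%), beside 37.4% of all listed promoters and, counted per gene, 42.3% of those other genes. The 10 genes with the E2F letters were Cdt1, Lig1, Mcm3, Mcm5, Mcm6, Mcm7, Orc1, Pola1, Rad51c and Rfc3, and their slopes on Mki67 ran from 0.65 to 1.04 with a median of 0.92. The other 33 had a median of 0.77 within a range from 0.05 to 1.12, the upper end being Fen1, which was not called. The steep genes Cdc6 (1.10), Mcm10 (0.99) and Mcm2 (0.98) lacked the letters, while Rad51c (0.65) and Rfc3 (0.71) had them. Stretches of 100 bases before the annotated gene are shown for 3 steep genes with the letters and for 2 flat genes without them, located on GRCm39 by exact match and written 5′ to 3′ along the strand of the gene, with the E2F letters or their reverse complement in capitals. In Mcm6 and Mcm5 a pair of matches, 1 on each strand, overlap in 1 run of capitals. Mcm6 is at chr1:128287517-128287616 (minus strand), Mcm5 at chr8:75835974-75836073 (plus), Pola1 at chrX:92675814-92675913 (minus), Orc3 at chr4:34614958-34615057 (minus) and Atrip at chr9:108903229-108903328 (minus).
Mcm6: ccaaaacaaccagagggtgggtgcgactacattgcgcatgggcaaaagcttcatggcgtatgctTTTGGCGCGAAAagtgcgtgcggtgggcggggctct
Mcm5: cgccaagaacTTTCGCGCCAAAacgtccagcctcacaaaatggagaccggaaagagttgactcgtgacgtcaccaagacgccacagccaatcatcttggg
Pola1: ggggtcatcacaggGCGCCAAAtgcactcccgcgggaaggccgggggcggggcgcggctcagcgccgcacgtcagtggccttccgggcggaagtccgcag
Orc3: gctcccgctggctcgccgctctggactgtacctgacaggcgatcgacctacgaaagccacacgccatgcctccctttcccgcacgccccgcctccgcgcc
Atrip: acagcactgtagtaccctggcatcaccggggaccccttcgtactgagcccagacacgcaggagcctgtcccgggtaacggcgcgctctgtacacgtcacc
A match of letters is a description of the sequence and no evidence of binding, and a window without them may hold other sites. The Orc3 window, for example, holds tttcccgc, a close variant of TTTCGCGC that was not sought.

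Most markers of dividing blood precursors moved with the set. All 12 erythroid precursor markers had positive called slopes on Mki67 with a median of 1.01, as did 11 of 12 neutrophil precursor markers (median 0.60), 9 of 12 B-lineage precursor markers (0.59) and all 11 mitosis markers tested (0.87). In the other direction 4 of 8 skeletal muscle markers (median -0.70), 3 of 5 synovial lining markers (-0.82) and 2 of 8 cartilage markers (-0.30) had negative called slopes. None of these 3 lists had a positive call. A negative call was also made for 1 B-lineage precursor marker, and for 4090 of all 14792 genes tested. The 8 osteoblast and 6 adipocyte markers had no call. Of the macrophage and monocyte markers 2 of 8 had a positive call, and of the T cell markers 2 of 7. The top 3 joints by the mean of the 55 genes, TLR3-MSC joint 1, STING-MSC joint 5 and control joint 5, were also the top 3 by the mean of the erythroid markers. The bottom 4 by the 55 genes, control joint 4, MSC joints 2 and 5 and TLR3-MSC joint 3, were the bottom 4 of the erythroid markers too. The part of these cell types in the levels of the 55 genes was not tested.

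**Figure D3:**
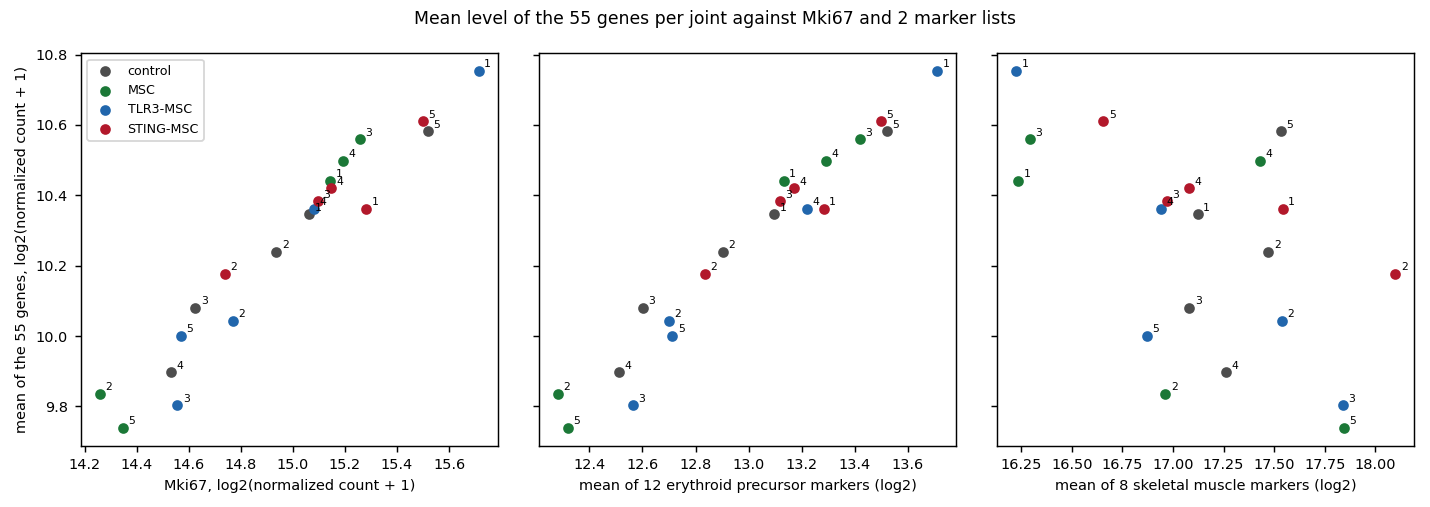
Mean log2(normalized count + 1) of the 55 genes in each of 20 joints against Mki67 (left), the mean of 12 erythroid precursor markers (middle) and the mean of 8 skeletal muscle markers (right). Colours are groups and numbers are joints within a group. Points rise together in the left and middle plots, from MSC joint 5 at 9.74 to TLR3-MSC joint 1 at 10.75, and scatter with a downward drift in the right plot.

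Comparison of joints from STING-MSC with those from MSC treated mice asked whether STING activation changed the response to the cells. The 55 genes were a little higher in STING-MSC joints, with a median log2 fold change of 0.16 (all genes 0.02), and 54 of 55 had a value above 0, beside 55.5% of all genes. Since the genes move together from joint to joint, these are not 54 separate observations. At an unadjusted limma p of at most 0.05 the difference was called for 2 genes, Nbn and Orc3, both higher in STING-MSC, which is 3.6% of the set beside 4.94% of all genes. At an adjusted p of 0.05 DESeq2 called 28 genes of the table, none of them in the set. Limma called none of the 55 at that level, beside 0% of all genes. The largest estimate apart from Fen1 was 0.31, for Pole, and no interval of the other 54 genes reached a 2-fold change, the highest upper limit being 0.92 for Exo1. The same held for these 54 genes in the other 5 comparisons. Markers of dividing cells had positive medians too, 0.27 for the erythroid precursor markers and 0.21 for the mitosis markers, Mki67 included, and all 12 of either list above 0. The B-lineage precursor markers went the other way (-0.15, 0 of 12 above 0), and the neutrophil precursor markers had 0.10, with 10 of 12 above 0. None of these markers was called, and their part in the shift of the 55 genes was not tested.

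Nbn (ENSMUSG00000028224, GRCm39 chromosome 4, 15957925 to 15992590), a protein-coding gene whose product brings the Mre11a nuclease to breaks, gave the smallest p of the set. Its normalized counts were 991.3, 945.5, 914.5, 898.3 and 1006 in STING-MSC joints and 801.5, 818.3, 858.6, 830.0 and 741.0 in MSC joints. All 5 STING-MSC joints lay above all 5 MSC joints, a separation that Nbn alone of the 55 showed here and that 1.05% of all genes showed in either direction. The log2 fold change was 0.23 ± 0.08 SE (95% interval 0.07 to 0.40, unadjusted limma p = 0.0077, adjusted p = 0.82), and an exact permutation test, two-sided, gave p = 0.0079, the smallest that 5 against 5 joints allow. Control joints had 982.4, 917.0, 918.6, 855.8 and 954.6 and TLR3-MSC joints 1097, 866.0, 967.9, 923.9 and 791.2, so that the MSC joints were the low group.

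Orc3 (ENSMUSG00000040044, chromosome 4, 34570796 to 34614945) had 1652, 1776, 1565, 1540 and 1913 normalized counts in STING-MSC joints and 1449, 1435, 1519, 1457 and 1712 in MSC joints. MSC joint 5 lay among the STING-MSC values, so the groups overlapped. The log2 fold change was 0.16 ± 0.07 (unadjusted limma p = 0.048, adjusted p = 0.94), with p = 0.079 in the two-sided exact permutation test. The call was lost in 7 of the 10 fits that left out 1 of these joints, with log2 fold changes from 0.11 to 0.20.

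Comparison of TLR3-MSC with MSC joints addressed the same question for TLR3 activation. The median log2 fold change of the 55 genes was -0.05 (all genes 0.03), with 18 of 55 above 0, beside 57.4% of all genes. Nbn alone was called at an unadjusted p of at most 0.05, which is 1.8% of the set beside 3.88% of all genes. At an adjusted p of 0.05 limma called none of the 55, beside 0% of all genes. DESeq2 called 7 genes of the table at that level and edgeR 1, none of them in the set. The log2 fold change of Nbn was 0.19 ± 0.08 (unadjusted limma p = 0.024, adjusted p = 0.98, exact permutation p = 0.063, two-sided), and TLR3-MSC joint 5, at 791.2, lay among the MSC joints. The next smallest p belonged to Atrip (ENSMUSG00000025646, chromosome 9, 108887001 to 108903193), the subunit that guides Atr to single-stranded DNA, with 536.9, 517.5, 473.2, 535.5 and 474.7 in TLR3-MSC joints and 532.1, 495.0, 440.8, 425.3 and 428.5 in MSC joints. These values overlapped, and the difference of 0.13 ± 0.09 was not called (unadjusted limma p = 0.18, exact permutation p = 0.13).

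Direct comparison of STING-MSC with TLR3-MSC joints gave the largest shift of the set as a whole and no called gene. The median log2 fold change was 0.22 (all genes 0.02), with 53 of 55 above 0, beside 55.3% of all genes, and 0 of 55 were called at an unadjusted p of at most 0.05, beside 2.57% of all genes. By edgeR the count was also 0, beside 4.09% of all genes, and by DESeq2 0, beside 4.58%. At an adjusted p of 0.05 limma and edgeR called none of the 55 and 0% of all genes, and DESeq2 called 2 genes of the table, neither of them in the set. The erythroid precursor markers (median 0.20), the neutrophil precursor markers (0.31) and the mitosis markers (0.21) had 12 of 12 above 0 here, and the synovial lining markers had 0 of 5 (-0.52). Their part in the shift of the set was not tested. The smallest p was that of Orc4 (log2 fold change 0.14 ± 0.08, unadjusted limma p = 0.080, exact permutation p = 0.056), followed by Rfc4, a clamp loader subunit. Rfc4 had 860.2, 850.1, 979.2, 1031 and 1269 normalized counts in STING-MSC joints and 1245, 737.5, 584.5, 807.9 and 716.6 in TLR3-MSC joints. TLR3-MSC joint 1 alone lay inside the STING-MSC range. That joint had the most Mki67 of all 20. Without it 10 of the 55 genes were called, or 18.2% beside 5.12% of all genes, all higher in STING-MSC and none at an adjusted p of 0.05 (smallest 0.61), the median log2 fold change was 0.37, and that of Rfc4 went from 0.32 ± 0.20 to 0.48.

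Comparison of each treated group with needle insertion alone showed differences of the same small size. In MSC joints the median log2 fold change was -0.00 (all genes -0.04), with 27 of 55 genes above 0 beside 42.3% of all genes, and 1 gene, Nbn, was called at an unadjusted p of at most 0.05, or 1.8% of the set beside 8.55% of all genes. None reached an adjusted p of 0.05, beside 0.00676% of all genes. The neutrophil precursor markers had a median of 0.42 in this comparison, with 12 of 12 above 0 and 4 called. Nbn was lower in MSC joints by a log2 fold change of -0.19 ± 0.08 (unadjusted limma p = 0.023, adjusted p = 0.47, exact permutation p = 0.016, two-sided), with 4 of 5 MSC joints below every control joint. Atrip came next with -0.19 ± 0.09 (unadjusted limma p = 0.058, exact permutation p = 0.071), and its control joints had 456.2, 561.8, 532.8, 496.8 and 604.9, with 3 of 5 MSC joints below all of them. In TLR3-MSC joints the median was -0.05 (all genes -0.01), with 15 of 55 above 0 beside 47.9% of all genes, and 0 of 55 were called beside 3.58% of all genes. By edgeR 0 were called, beside 3.81% of all genes, and by DESeq2 0, beside 4.26%. At an adjusted p of 0.05 none of the 3 methods called a gene of the set. Limma and edgeR called 0% of all genes there, and DESeq2 called 3 genes of the table. The smallest p there was that of Blm, the helicase that unwinds recombination intermediates, with 2025, 1072, 874.1, 1381 and 1100 in TLR3-MSC joints and 1303, 1473, 1162, 1155 and 2015 in control joints. Both groups held 1 high joint, and the difference of -0.17 ± 0.21 had a limma p of 0.43 and an exact permutation p of 0.51.

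In STING-MSC joints the 55 genes had a median log2 fold change of 0.16 against control (all genes 0.01), with 52 of 55 above 0 beside 51.7% of all genes. The neutrophil precursor markers had a median of 0.53, with 12 of 12 above 0 and 9 of 12 called, and their summed level was 290748 to 497908 normalized counts in STING-MSC joints beside 198195 to 397648 in control joints. The erythroid precursor markers (0.26) and the mitosis markers (0.22) also had 12 of 12 above 0 and no call, and the B-lineage precursor markers had 2 of 12 above 0 (-0.09) and 1 lower call. The part of these markers in the shift of the set was not tested. At an adjusted p of 0.05 limma called none of the 55 and 0% of all genes. DESeq2 called 85 genes of the table at that level, none of them in the set. At an unadjusted p of at most 0.05 limma called 1 of the 55 genes, or 1.8% of the set beside 12.2% of all genes. The called gene was Orc4 (ENSMUSG00000026761, chromosome 2, 48792836 to 48840290), a subunit of the origin recognition complex, with 937.5, 1032, 987.5, 915.8 and 967.1 in STING-MSC joints and 854.3, 779.2, 855.8, 881.3 and 821.2 in control joints. All STING-MSC joints lay above all control joints, as was the case in either direction for 2.17% of all genes. The log2 fold change was 0.21 ± 0.08 (95% interval 0.04 to 0.37, unadjusted limma p = 0.016, adjusted p = 0.35, exact permutation p = 0.0079, two-sided). MSC joints had 920.2, 932.0, 1007, 954.4 and 761.4 and TLR3-MSC joints 947.3, 791.6, 921.0, 797.5 and 930.2, between the other groups and overlapping both. Acvr2a, with which Orc4 shares exon bases on the opposite strand, had 651.8 ± 136.4 (SD) in STING-MSC and 644.4 ± 66.6 in control joints, a log2 fold change of -0.01 ± 0.17. Pold1 had the next smallest p, with 3336, 2720, 3579, 3631 and 4051 against 3177, 3059, 2493, 2121 and 3277 in control joints, a difference of 0.30 ± 0.18 (unadjusted limma p = 0.10, exact permutation p = 0.087). No other pair of groups was fully separated for any of the 55 genes, which happened for 1.11% of all genes in MSC against control, 0.825% in TLR3-MSC against control, 0.581% in TLR3-MSC against MSC and 1.35% in STING-MSC against TLR3-MSC. The control group enters 3 of the 6 comparisons and each treated group 3 as well, so their values are not independent.

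**Figure D4:**
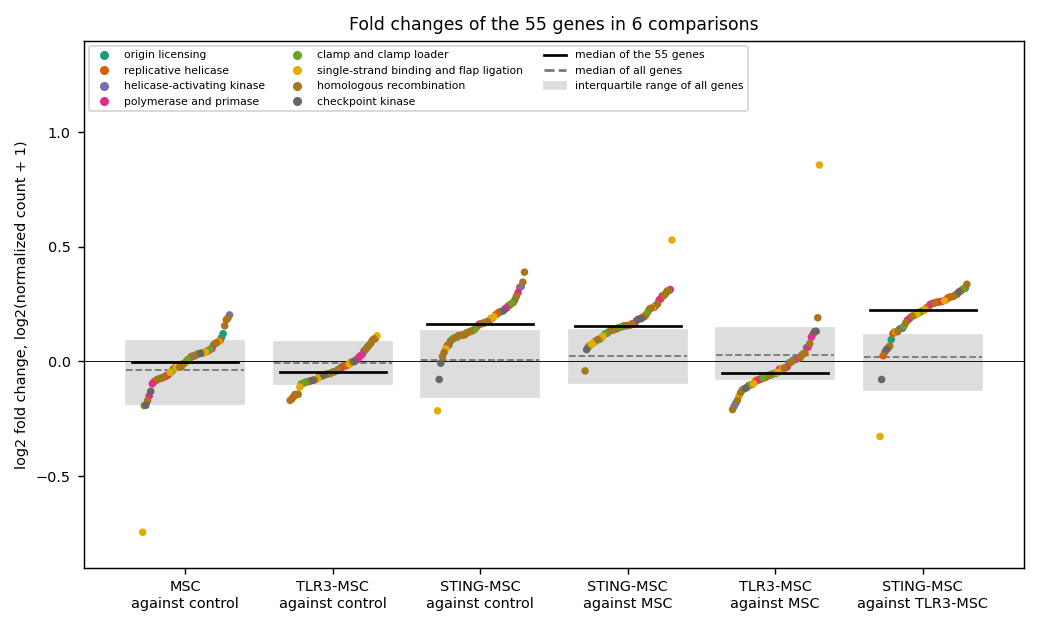
log2 fold change, on log2(normalized count + 1), of the 55 genes in each of 6 comparisons, sorted and coloured by role. Solid lines are the medians of the 55 genes, dashed lines the medians of all 14793 genes and grey bands the interquartile range of all genes. The 3 comparisons with STING-MSC have medians of 0.16, 0.16 and 0.22, the other 3 lie between -0.05 and 0, and the points far from the rest belong to Fen1.

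Representative genes of each step showed how the joint-to-joint spread compared with these shifts. Mcm2 had 6103 ± 1572 normalized counts (SD over 5 joints) in control, 6024 ± 2053 in MSC, 6147 ± 2292 in TLR3-MSC and 6964 ± 1001 in STING-MSC joints. Orc1 had 555.1 ± 137.2, 546.0 ± 204.4, 546.4 ± 219.0 and 636.8 ± 113.9 in the same order. For both, the STING-MSC mean was the highest and the 4 groups lay within 1 SD of each other. Cdc7 had 857.5 ± 183.9, 999.0 ± 274.3, 869.2 ± 236.0 and 1070 ± 213.1. Pola1 had 1476 ± 277.3, 1409 ± 402.4, 1549 ± 619.1 and 1678 ± 272.2, and Pcna 4177 ± 764.0, 4391 ± 1330, 3978 ± 1080 and 4537 ± 695.5. Rpa1, the large single-strand binding subunit, was the steadiest of these, with 4723 ± 797.2, 4634 ± 709.0, 4498 ± 854.8 and 4860 ± 265.5. Brca1 had 1605 ± 415.0, 1552 ± 484.7, 1563 ± 617.1 and 1784 ± 283.7, and Chek1 515.9 ± 154.4, 530.2 ± 153.5, 493.2 ± 164.0 and 593.1 ± 126.1. None of these 8 genes was called in any of the 6 comparisons. Mki67 itself had 32297 ± 9272, 30640 ± 9606, 32947 ± 12392 and 36958 ± 6953, also highest in STING-MSC joints and not called.

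**Figure D5:**
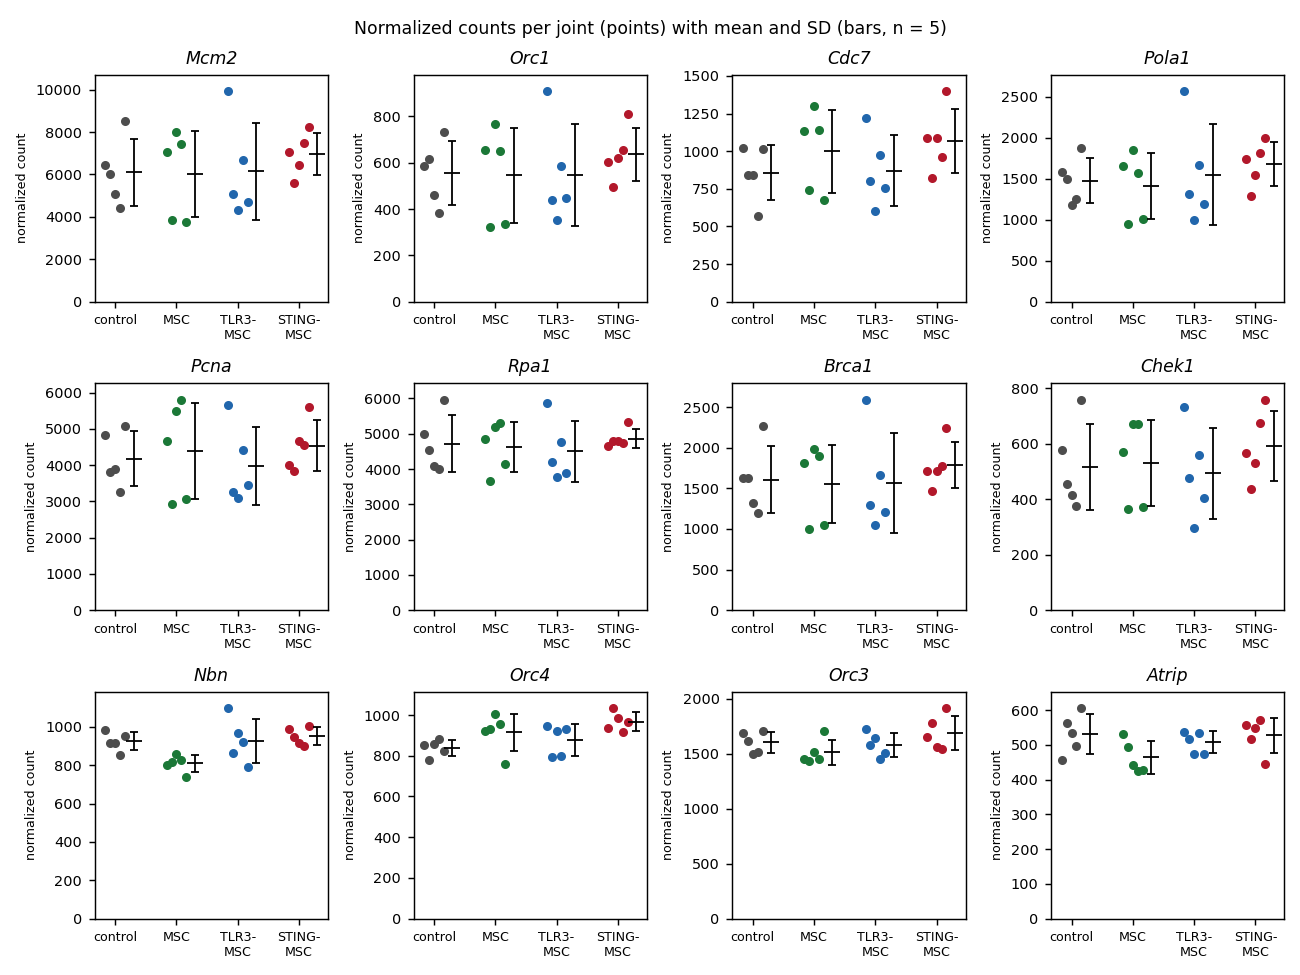
Normalized counts of 12 genes in every joint, with the mean and SD of 5 joints per group beside the points. The upper 8 genes stand for the steps of replication and repair and overlap in all 4 groups, as with Mcm2 at 6103, 6024, 6147 and 6964. In the lower row Nbn is low in MSC joints and Orc4 is higher in every STING-MSC joint than in any control joint.

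A test for any difference among the 4 groups called 1 of the 55 genes at an unadjusted p of at most 0.05, Nbn (limma F test, adjusted p = 0.75), or 1.8% beside 6.42% of all genes. Orc4 (adjusted p = 0.82) and Atrip (adjusted p = 0.84) followed. In this limma test neither the set (0 genes) nor the table (0% of genes) reached an adjusted p of 0.05. At that level DESeq2 called 99 genes of the table and edgeR 2, none of them in the set. The genes with the smallest p were among those that followed Mki67 least, and the steep helicase and licensing genes were absent from the calls of all 6 comparisons. The steep genes had wider errors and not always smaller estimates. In STING-MSC against MSC Nbn had a log2 fold change of 0.23 ± 0.08, whereas Mcm2 had 0.27 ± 0.25 and Orc1 0.30 ± 0.27. The calls therefore do not rank the genes by size of difference.

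Because the set followed Mki67 so closely, the 6 comparisons were also fitted with the Mki67 level as a further term, a fit chosen after the values were seen. At an unadjusted p of at most 0.05 it called 5 of the 55 genes in MSC against control (beside 22.8% of all genes), 5 in TLR3-MSC against control (7.47%), 4 in STING-MSC against control (12.9%), 6 in STING-MSC against MSC (11.1%), 19 in TLR3-MSC against MSC (14.6%) and 0 in STING-MSC against TLR3-MSC (2.69%). In TLR3-MSC against MSC 18 of the 19 were lower in TLR3-MSC at a given Mki67, among them Mcm10 (-0.21 ± 0.05, adjusted p = 0.12), Bard1 (-0.26 ± 0.06, adjusted p = 0.14) and Cdt1 (-0.27 ± 0.07, adjusted p = 0.14), and Nbn was higher (0.17 ± 0.06, adjusted p = 0.25). At an adjusted p of at most 0.05 this fit called 1 of the 55 in MSC against control, Mcm10 (0.19 ± 0.05, adjusted p = 0.042), beside 3.19% of all genes. It called none of the 55 in the other 5 comparisons, beside 0.00676% of all genes in TLR3-MSC against control, 0.0473% in STING-MSC against MSC, 0.0203% in TLR3-MSC against MSC and 0% in the remaining pair. With this term the median log2 fold change of STING-MSC against control was -0.00 and that against MSC -0.07, while that against TLR3-MSC was 0.06, where the fit without the term had 0.16, 0.16 and 0.22. Mki67 was itself highest in STING-MSC joints and most of the set followed it, so the term lowers these medians by construction. The cause of the shift was not tested by this fit. With the Mki67 term Nbn and Orc4 kept their calls in the comparisons of STING-MSC with MSC and with control.

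Other genes of the same pathways were read in the same way. Of 33 other replication genes tested, 31 had a positive called slope on Mki67 (median 0.76), as did 8 of 10 nucleotide supply genes (0.78), 15 of 22 E2F and G1/S regulators (0.68) and 28 of 38 other recombination and Fanconi genes (0.49). Of 12 genes of non-homologous end joining, the repair route that needs no sister copy and no replication, 3 had one, with a median slope of 0.17.

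Across the groups these lists gave 0 to 6 calls per comparison at an unadjusted p of at most 0.05. Over all genes the share called was 8.55% in MSC against control, 3.58% in TLR3-MSC against control and 12.2% in STING-MSC against control. It was 4.94% in STING-MSC against MSC, 3.88% in TLR3-MSC against MSC and 2.57% in STING-MSC against TLR3-MSC. In STING-MSC against MSC joints 2 of 38 other recombination genes and 1 of 12 end joining genes were called, all higher, and none of the 33 replication, 10 nucleotide supply or 22 E2F and G1/S genes. They were the structure-selective endonuclease Mus81, with 801.8 ± 34.4 against 673.7 (log2 fold change 0.25 ± 0.06, limma adjusted p = 0.57), Fance, a subunit of the Fanconi core complex (0.23 ± 0.11), and Trp53bp1, which favours end joining over resection (0.33 ± 0.09, limma adjusted p = 0.59). In TLR3-MSC against MSC joints the same 3 genes were called, with 0.14 ± 0.06, 0.29 ± 0.11 and 0.31 ± 0.09, and Pold4, a small subunit of polymerase delta, was lower in TLR3-MSC joints (-0.41 ± 0.16). STING-MSC against TLR3-MSC gave no call in these lists.

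Against control, Rad52 had 477.1 ± 55.7 in MSC, 466.7 ± 27.4 in TLR3-MSC and 495.5 ± 63.9 in STING-MSC joints beside 397.5 in control joints, and was called in all 3 comparisons (log2 fold changes 0.26, 0.23 and 0.31, each ± 0.10), which share the same control joints. It was the only call of these lists in TLR3-MSC joints. In MSC joints Fance (-0.35 ± 0.11) and Trp53bp1 (-0.22 ± 0.09) were lower than in control joints. In STING-MSC joints the calls beside Rad52 were Mus81 (0.16 ± 0.06), the helicase-binding gene Mcmbp (0.24 ± 0.10) and the end joining genes Dclre1c, a nuclease (0.34 ± 0.14), and Nhej1, a ligation factor (0.33 ± 0.13), all higher. Sfr1, a recombination gene named after its value was seen, was lower there (-0.21 ± 0.10). No call of these lists passed an adjusted p of 0.05.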

How the data were processed

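PolyA RNA from 20 knee joints, 5 in each of 4 groups taken from the sample labels, was sequenced. Per the labels and the methods of the study, the authors aligned reads to GRCm39 with STAR 2.7.3a and counted them per Ensembl 108 gene with HTSeq. The deposited signal values are gene counts divided by median-ratio size factors by the authors, called normalized counts here, and the lowest mean of a gene in the table is 9.40. Whole reads were recovered for 98.9% to 99.9% of values per joint (tolerance 0.05 reads), which gave the depths and served edgeR and DESeq2. Depth limits counting error only.

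The main test was limma 3.58.1 (R 4.3.3) with a trend on log2(normalized count + 1), fitted to all 14793 genes and 20 joints without a block. Fold changes are on that scale, which understates those of low genes. Calls used an unadjusted p of at most 0.05, which is 1 of the criteria the study names, without its fold threshold and with Benjamini-Hochberg adjusted p beside it. The slope fit had group and Mki67, centred within groups, as terms. Single genes were also tested by exact permutation (scipy 1.17.1, 252 splits, two-sided), and intervals are 95%. Scripts were tested on simulated data. No filter on low values was used, so all 55 genes were tested.

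The 55 genes and all lists were chosen with earlier results of these data known. Named genes were those with the 2 smallest p per comparison, the 3 smallest in the F test, the steepest and flattest slope, every called gene, 8 representative genes (Mcm2, Orc1, Cdc7, Pola1, Pcna, Rpa1, Brca1, Chek1) and, of other lists, the 2 smallest p per comparison, with Mki67. A further gene that this rule named is not reported here. Alternatives were pseudocounts of 5 and 0.5, a mean of at least 20, only the groups compared, quantile normalization, edgeR 4.0.16 (TMM, quasi-likelihood), DESeq2 1.42.0, a replicate block and leaving out each joint. Transcript lengths, shared exon bases and gene spans came from GENCODE M39 on GRCm39. No 2 joints of a group agreed within sampling noise (lowest chi-square 24.1 per gene). The labels call the joints biological replicates and give no batch. A batch, if any, could therefore not be examined, and whether it would coincide with the groups is not known.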

Additional observations from a re-analysis of the deposited data

Results flagged for a closer look

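1 result was far from the rest of its group. Rpa1, the large single-strand binding subunit, had 5326 normalized counts in STING-MSC joint 5, whereas the other 4 STING-MSC joints lay between 4660 and 4789. The gap was 0.81 of the group's range, above Dixon's critical value of 0.71 for 5 values. Of 68 groups examined (the mean of the 55 genes and 16 named genes, each in 4 groups) this was the only one, and chance alone flags about 1 in 20. STING-MSC joint 5 also had the highest Mki67 of its group, 46334 normalized counts.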

How the results depend on the processing

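Counts of called genes among the 55 were small, and several changed by a single gene. At an unadjusted p of at most 0.05, the main fit called 1 gene in MSC against control, where DESeq2 called 2 (3.64% of the set beside 9.71% of all genes) and quantile normalization 0 (beside 8.63%). It called 2 in STING-MSC against MSC, where edgeR, a fit to only the groups compared and quantile normalization each called 1, Nbn (beside 4.85%, 3.48% and 4.33%). It called 1 in TLR3-MSC against MSC, where the fit to only the groups compared and quantile normalization called 0 (beside 2.32% and 3.84%). The F test called 1, against 0 by edgeR (beside 7.35%) and 0 after quantile normalization (beside 6.29%). The fit with Mki67 as a term, chosen after seeing the data, called 5, 5, 4, 6, 19 and 0 in the order of the report, and 1 at an adjusted p in MSC against control. The cause of these changes was not tested.

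Leaving out 1 joint gave 1 to 2 calls in MSC against control, 0 to 0 in TLR3-MSC against control, 1 to 3 in STING-MSC against control, 1 to 2 in STING-MSC against MSC, 0 to 1 in TLR3-MSC against MSC, 0 to 10 in STING-MSC against TLR3-MSC, 0 to 1 in the F test and 49 to 52 for the slope on Mki67. Without TLR3-MSC joint 1, STING-MSC against TLR3-MSC had 10 calls beside 5.12% of all genes. Without control joint 5, STING-MSC against control had 3 (Orc2, Orc4 and Rad54l), or 5.45% of the set beside 14.2% of all genes. Atrip was called in MSC against control without MSC joint 1 or 2, control joint 1 or STING-MSC joint 5. It was also called in STING-MSC against MSC without MSC joint 1 or STING-MSC joint 5. Nbn lost its call in MSC against control without MSC joint 5 (-0.16) or control joint 1 (-0.17). In TLR3-MSC against MSC Nbn lost its call without MSC joint 5 (0.16) or TLR3-MSC joint 1 (0.13) or 3 (0.17). Nbn in STING-MSC against MSC and Orc4 in STING-MSC against control kept their calls under every alternative run. Leaving out 1 joint, the median log2 fold change of the 55 genes ran from 0.07 to 0.26 in STING-MSC against control, 0.04 to 0.25 against MSC and 0.13 to 0.37 against TLR3-MSC, and crossed 0 in the other 3 comparisons. The genes with the 2 smallest p of each comparison kept their direction there under every alternative run. Of the 48 values of the 8 representative genes in the 6 comparisons, none of them called, 23 changed sign under at least 1 alternative other than the Mki67 term, each from a size of at most 0.12, among them Mcm2 in MSC against control (-0.06).

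The replicate block, which used the replicate numbers of the labels, gave the counts of the main fit in all 6 comparisons and 50 calls for the slope. Deviations of same-numbered joints had correlations from -0.66 to 0.46. In no comparison were all 5 pairs above 0.1 (4 of 5 in TLR3-MSC against MSC, 1 or 2 in the others), and at most 3 of 5 joints, in STING-MSC against control, correlated best with their own number, so the joints were not taken as paired. Pseudocounts of 5 and 0.5 and a mean of at least 20 changed no count beyond 1.5 times, and Fen1, with a mean of 13.9, is not tested under the last. With 5 joints per group and a median SE of 0.21 on the log2 scale, the 95% intervals had a median half-width of about 0.44. For a typical gene of the set an estimate under that size had an interval that included 0. The power to detect a true difference was not computed.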
